A study of Mus musculus with 24 samples.

Results

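The 10 genes described here encode the sperm calcium channel CatSper and the transporters and channels that set the pH and membrane potential of the sperm tail. They are Catsper1, Catsper2, Catsper3 and Catsper4, which form the pore, Catsperb, Catsperd and Catsperg1, which are auxiliary subunits, and Slc9c1, Kcnu1 and Hvcn1. They were chosen by name, by matching the Ensembl identifiers of the count table to the gene symbols of GENCODE M21, and they are 10 of the 55536 genes in the table. Messenger RNA was sequenced in bulk from pachytene/diplotene spermatocytes and from round spermatids, the haploid cells that follow meiosis. Both fractions were enriched from adult mouse testis by settling in a gradient of bovine serum albumin and were not pure. A constitutive deletion on chromosome 4, which spans Ago1 whole and Ago3 and Ago4 in part, was present on both chromosomes (null, Ago413-/-), on 1 (Ago413+/-) or on neither (wild type, Ago413+/+) and acts in every cell of the animal. The deleted genes encode Argonaute proteins.

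All males were 10 to 15 weeks old and on a C57BL/6J background, and testes of 2 to 5 males of one genotype were combined for each cell suspension, and every library therefore comes from pooled males. The deletion was engineered in 129-derived embryonic stem cells and the line was then backcrossed. Spermatocytes were represented by 4 wild-type, 3 Ago413+/- and 3 Ago413-/- libraries, and round spermatids by 3 wild-type, 4 Ago413+/- and 4 Ago413-/- libraries. A further 3 libraries, which the labels call outliers, entered no main comparison.

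The 21 libraries held 12825105 to 29749058 counts. Ago1, which lies inside the deletion, had 0 counts in all 7 null libraries and 32 to 122 counts in the other 14. In wild-type libraries the 6 summed spermatocyte markers (Sycp1 to Sycp3 among them) lay at 654 to 1029 CPM (counts divided by the TMM-scaled library size) in spermatocytes and at 394 to 435 CPM in round spermatids, and all 6 were detected in both fractions. The 6 elongating spermatid markers, led by protamines, summed to 3804 to 8925 CPM in wild-type spermatocytes and to 23755 to 34139 CPM in wild-type round spermatids and were all detected in both fractions. Round spermatid markers summed to 534 to 999 CPM and to 1304 to 1522 CPM in the same groups. Sertoli markers summed to at most 65.3 CPM, Leydig markers to at most 22.8 CPM, macrophage markers to at most 24.4 CPM and erythrocyte markers to at most 2.20 CPM in any library. Summed markers of spermatogonia reached 95.5 CPM. The peritubular list reached 639 CPM through Actg2, while its other 3 genes (Acta2, Myh11, Cnn1) had group means of at most 3.57 CPM. Of the 3 labelled outliers, the library labelled wild-type round spermatid replicate 3 had an elongating spermatid sum of 5681 CPM, against 23641 to 33037 CPM in the other wild-type round spermatid libraries and 3803 to 9275 CPM in wild-type spermatocytes on the scaling of all 24 libraries. The library labelled wild-type spermatocyte replicate 3 had 15514 CPM, above its group, and a spermatocyte marker sum of 419.7 CPM, below its group (660.3 to 1029 CPM). The library labelled Ago413+/- spermatocyte replicate 4 had an elongating spermatid sum of 14881 CPM, above its group (7167 to 9393 CPM). Its spermatocyte marker sum was 380.7 CPM, below its group (448.0 to 594.2 CPM). All 3 therefore go against their labels in these markers. In such bulk samples, fewer cells of a type and less RNA per cell cannot be told apart.

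CatSper is a calcium channel of the principal piece of the sperm tail. Its pore is built from the 4 CatSper proteins and is held in a large complex by auxiliary subunits, and loss of the channel makes male mice infertile because sperm cannot switch to the vigorous beating called hyperactivation. The channel opens when the inside of the sperm becomes alkaline. Slc9c1 encodes a sodium/proton exchanger of the sperm tail (sNHE), Kcnu1 encodes the alkaline-activated potassium channel SLO3 that hyperpolarizes mouse sperm, and Hvcn1 encodes a voltage-gated proton channel. These proteins act in sperm, but their messenger RNAs are made earlier, in late meiotic and haploid cells.

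RefSeq promoters (GRCm38.p6, 250 bases before to 50 bases after the start site) were available here for 7 of the 10 genes, in 9 windows. Shown are 2 genes of each of the patterns described below, Catsper3 and Catsper4, and Catsperb and Slc9c1. Each is written 5′ to 3′ on the strand of the gene, with AACTG, the core of the sites bound by MYB factors, and its reverse complement CAGTT in capitals. The windows lie at chr13:55784329-55784628 (plus strand) for Catsper3, chr4:134227334-134227633 (minus strand) for Catsper4, chr12:101404423-101404722 (plus strand) for Catsperb and chr16:45535016-45535315 (plus strand) for Slc9c1.
Catsper3: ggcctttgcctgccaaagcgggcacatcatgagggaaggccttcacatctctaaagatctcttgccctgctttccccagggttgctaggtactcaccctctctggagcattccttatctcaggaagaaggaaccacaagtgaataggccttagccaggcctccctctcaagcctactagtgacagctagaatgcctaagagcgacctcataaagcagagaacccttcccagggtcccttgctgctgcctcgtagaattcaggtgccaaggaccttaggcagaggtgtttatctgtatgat
Catsper4: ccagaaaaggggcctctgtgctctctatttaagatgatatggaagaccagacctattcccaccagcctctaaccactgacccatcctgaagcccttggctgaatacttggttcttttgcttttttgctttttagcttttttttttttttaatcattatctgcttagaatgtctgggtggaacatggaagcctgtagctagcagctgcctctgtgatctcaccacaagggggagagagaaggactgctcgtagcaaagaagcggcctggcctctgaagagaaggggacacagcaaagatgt
Catsperb: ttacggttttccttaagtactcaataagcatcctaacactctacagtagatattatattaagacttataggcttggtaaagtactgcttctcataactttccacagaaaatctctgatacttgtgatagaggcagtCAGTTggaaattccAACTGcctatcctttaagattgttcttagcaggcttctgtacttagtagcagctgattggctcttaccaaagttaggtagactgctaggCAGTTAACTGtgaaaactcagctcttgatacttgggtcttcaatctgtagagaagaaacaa
Slc9c1: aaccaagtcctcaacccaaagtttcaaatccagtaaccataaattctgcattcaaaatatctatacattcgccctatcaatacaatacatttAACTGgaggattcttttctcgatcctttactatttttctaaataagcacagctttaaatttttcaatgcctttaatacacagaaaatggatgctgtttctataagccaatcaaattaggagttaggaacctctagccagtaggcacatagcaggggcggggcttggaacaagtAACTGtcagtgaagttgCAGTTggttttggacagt

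The Catsperb window held AACTG 4 times on either strand, beginning at -114, -100, -11 and -6 from the start site, and the Slc9c1 window held it 3 times, at -158, 16 and 33. Neither the Catsper3 nor the Catsper4 window held it. Of the other windows, Catsper2 and 1 of 2 windows each of Catsperd and Catsperg1 held it 1 time. Among 32817 RefSeq promoters of this length, 44.8% held AACTG at least 1 time and 3.21% at least 3 times. The word to mark was chosen after the matches were seen. Other words searched on both strands were TGACG, the half-site of CREM and CREB (in 20.8% of all promoters), TGACGTCA, the full site that contains it (1.79%), GTTGCC, a half-site of RFX factors (12.5%), ACAAT, the SOX core (31%) and TATAAA, the TATA box (13.6%). TGACG was found 3 times in 1 Catsperd window and 1 time in Catsper2, ACAAT 1 time each in Catsperb and Slc9c1, and TATAAA 1 time in a Catsperg1 window. TGACGTCA and GTTGCC were in none of the 9 windows. A match describes these letters only.

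Catsper2 gave the most counts of the 10 genes in every one of the 21 libraries, and Hvcn1 was barely detected. Per kilobase of exon, the scale on which genes can be compared, the mean level in wild-type spermatocytes was 137 ± 20.4 CPM per kb (SD, n = 4) for Catsper2, 62.4 ± 17.9 for Catsper3, 54.6 ± 17.3 for Catsper4 and 40.8 ± 14.1 for Catsper1. Neighbours among the last 3 differed by less than their SD. Slc9c1 stood at 53.6 ± 6.73 and Catsperd at 40.5 ± 1.77 CPM per kb. Lower still were Catsperg1 at 22 ± 1.96, Kcnu1 at 21.1 ± 5.33 and Catsperb at 18.3 ± 2.06 CPM per kb, and these 3 overlapped in range with each other. The place of Catsperg1 is uncertain in both fractions, as 55.4% of its 31-base words also occur in other genes and reads from them may not have been counted, and so is that of Catsperb, at 14.6%, to a lesser extent.

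In wild-type round spermatids the 4 pore subunits stood closer together. Mean levels were 108 ± 17.6 CPM per kb (SD, n = 3) for Catsper2, 92.4 ± 20.7 for Catsper3, 79.2 ± 15.5 for Catsper4 and 67.8 ± 8.81 for Catsper1, and neighbours in that order overlapped in range. Catsperd stood at 35.4 ± 2.88, Slc9c1 at 28.2 ± 7.20, Kcnu1 at 27.4 ± 5.78, Catsperg1 at 25.0 ± 1.27 and Catsperb, the lowest apart from Hvcn1, at 8.02 ± 1.43 CPM per kb. Of the summed per-length level of the 4 pore subunits, Catsper2 made up 47.0% ± 6.79 (SD, n = 4) in wild-type, 31.6% ± 1.57 (n = 3) in Ago413+/- and 30.2% ± 1.83 (n = 3) in Ago413-/- spermatocytes. In round spermatids its share was 31.2% ± 2.12 (n = 3), 28.6% ± 3.34 (n = 4) and 24.2% ± 2.91 (n = 4) in the same order. Catsper4 made up 18.3% ± 2.61 in wild-type against 27.1% ± 1.16 in null spermatocytes.

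Among themselves the members varied over the 21 libraries by 1.56 times from the lowest to the highest library for Catsperd, the steadiest, and by 3.56 times for Catsperb, the most variable apart from Hvcn1. Catsper1, Catsper3, Catsper4 and Kcnu1 went up and down together, with Pearson correlations of log2 CPM between 0.79 and 0.93 over the 6 pairs. Catsperb and Slc9c1 correlated at 0.92, and the 8 pairs between these sets at -0.52 to -0.25. After the mean of each fraction and genotype was subtracted, the 3 ranges were 0.58 to 0.94, 0.81, and -0.25 to 0.32. These describe 21 libraries that share fractions, genotypes and scaling, and the sets were formed after the values were seen.

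**Figure D1:**
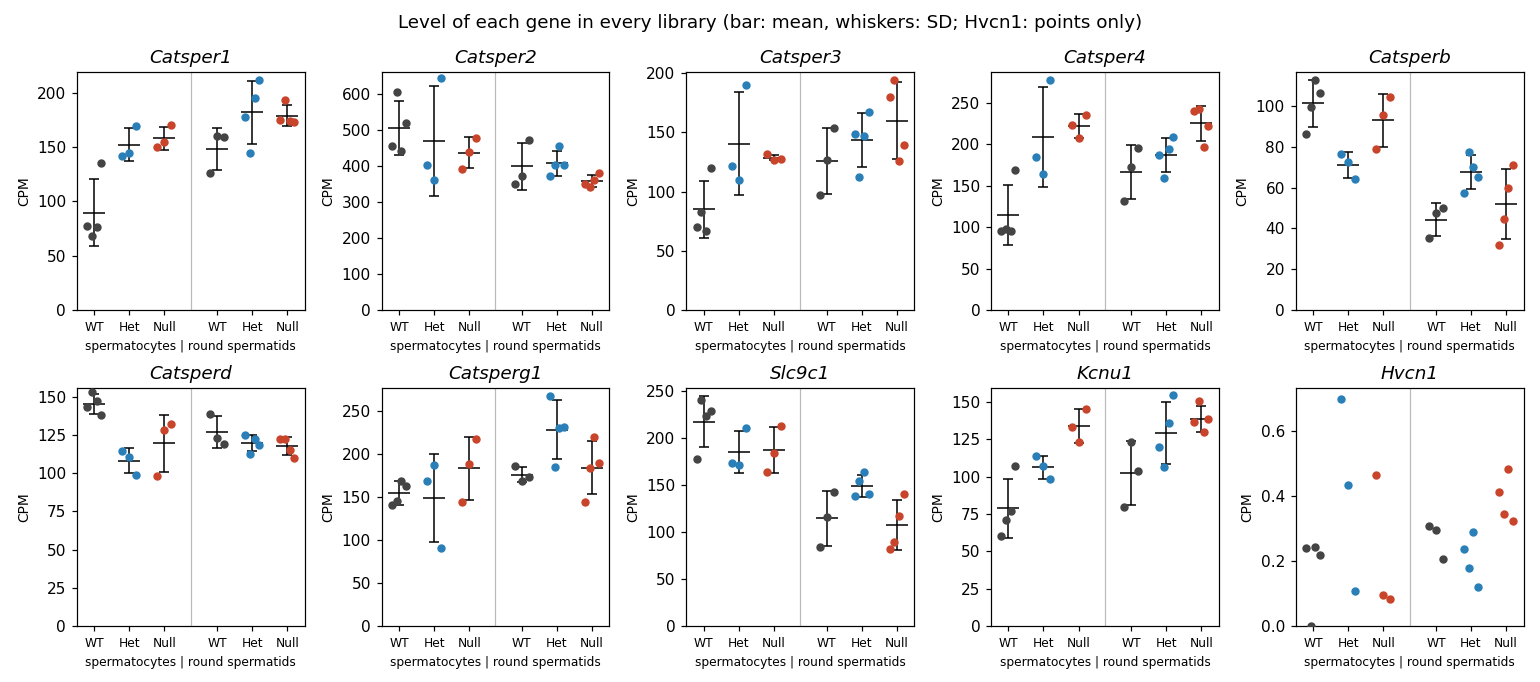
Level of each of the 10 genes (y axis, CPM) in every library, by genotype and fraction (x axis); each point is a library, the bar is the group mean and the whiskers are the SD, and Hvcn1 is shown as points only. In spermatocytes the 3 null points of Catsper1, Catsper3, Catsper4 and Kcnu1 lie above all 4 wild-type points, and Catsperb and Slc9c1 are higher in spermatocytes than in round spermatids in the wild type and the null.

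In spermatocytes, Catsper1, Catsper3, Catsper4 and Kcnu1 were higher in every null library than in any wild-type library, and the mean difference was 1.53 to 1.96-fold. Each passed an unadjusted p under 0.05, and none passed the adjusted threshold of the main test. Catsper2, Catsperb, Catsperd, Catsperg1 and Slc9c1 lay within 1.21-fold of the wild type.

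Catsper1, the first CatSper gene to be described and a pore subunit (ENSMUSG00000038498, mm10 chromosome 19, 5335741 to 5344280), had 77.1, 68.3, 76.5 and 135 CPM in the 4 wild-type spermatocyte libraries (replicates 1, 2, 4 and 5). It had 142, 145 and 169.6 CPM in the Ago413+/- and 150.1, 154 and 170.0 CPM in the Ago413-/- libraries. Neither mutant group overlapped the wild type, in which replicate 5 stood apart from the other 3 libraries and close to the mutants. The log2 difference from the wild type was 0.84 ± 0.22 (SE) in the null (edgeR, adjusted p = 0.0599, DESeq2, adjusted p = 0.0111) and 0.81 ± 0.22 in Ago413+/- (edgeR, adjusted p = 0.124).

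Catsper4 (ENSMUSG00000048003, chromosome 4, 134211970 to 134227383), a second pore subunit, stood at 95.9, 97.8, 95.8 and 169 CPM in the 4 wild-type libraries, 185, 164 and 278 CPM in Ago413+/- and 224, 207 and 236 CPM in Ago413-/- spermatocytes. All null libraries lay above the wild type, while 1 Ago413+/- library fell below wild-type replicate 5. The log2 difference was 0.97 ± 0.23 in the null (edgeR, adjusted p = 0.0599, DESeq2, adjusted p = 0.00653) and 0.91 ± 0.23 in Ago413+/- (edgeR, adjusted p = 0.124). Catsper4 lies 7.68 Mb from Ago4 on the chromosome that carries the deletion, and whether flanking sequence of the targeted strain remained around it was not tested.

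Catsper3 (ENSMUSG00000021499, chromosome 13, 55784568 to 55808998), also a pore subunit, had 70.5, 82.7, 66.7 and 120.0 CPM in wild-type, 122, 109.9 and 190.2 CPM in Ago413+/- and 131, 127 and 128 CPM in null spermatocytes. The 3 null libraries were close to each other and above wild-type replicate 5 by a small margin. The log2 difference was 0.61 ± 0.23 in the null (edgeR, adjusted p = 0.103, DESeq2, adjusted p = 0.0685) and 0.77 ± 0.23 in Ago413+/- (edgeR, adjusted p = 0.124), where replicate 3 alone stood at 190.2 CPM.

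Kcnu1, the SLO3 potassium channel (ENSMUSG00000031576, chromosome 8, 25849623 to 25937939), had 60.5, 70.9, 76.8 and 107 CPM in wild-type, 114, 107 and 98.4 CPM in Ago413+/- and 133, 123 and 146 CPM in null spermatocytes. Here the null libraries lay above both other genotypes. The log2 difference from the wild type was 0.78 ± 0.19 in the null (edgeR, adjusted p = 0.0599, DESeq2, adjusted p = 0.00555) and 0.48 ± 0.19 in Ago413+/- (edgeR, adjusted p = 0.155).

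The fourth pore subunit did not share this order. Catsper2 (ENSMUSG00000033486, chromosome 2, 121392631 to 121413792) ranged from 440.4 to 607 CPM in the wild type, from 362 to 645 CPM in Ago413+/- and from 392 to 479 CPM in the null, with a log2 difference of -0.19 ± 0.20 between null and wild type (edgeR, adjusted p = 0.515). Of the auxiliary subunits, Catsperd (ENSMUSG00000040828, chromosome 17, 56628143 to 56664456) was lower in all 3 null libraries (98.2 to 132 CPM) than in the wild type (138 to 153 CPM), at a log2 difference of -0.27 ± 0.15 (edgeR, adjusted p = 0.231). Catsperb (difference -0.10 ± 0.16) and Catsperg1 (0.27 ± 0.22) overlapped between null and wild type on the log2 scale. Of the 31-base words of Catsperg1 (ENSMUSG00000049676, chromosome 7, 29181321 to 29214035), 55.4% also occur in other genes, nearly all in Catsperg2, so its counts are uncertain. The exchanger gene Slc9c1 differed by -0.20 ± 0.16 (log2; edgeR, adjusted p = 0.389).

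All 10 genes passed the filter in spermatocytes (10 or more counts in 3 or more libraries), Hvcn1 only through 2 Ago413+/- libraries and 1 null library. With edgeR, 0 of 10 were called between null and wild type, against 0.0411% of all 19450 genes tested. DESeq2 called Catsper1, Catsper4 and Kcnu1, 3 of 10, all higher, against 15.6% of all genes (9.08% higher). At an unadjusted p under 0.05 in edgeR, 4 of 10 were higher, against 15.9% of all genes. Without overlap between the groups, 4 of 10 were higher (13.2% of all genes) and 1 of 10, Catsperd, was lower (14.8%). The median log2 difference over the 9 genes other than Hvcn1 was 0.27, beside -0.031 over all genes. In Ago413+/- spermatocytes, edgeR again called 0 of 10 (0.0257% of all genes) and DESeq2 called Catsper1, Catsper3 and Catsper4 (6.31%), and at an unadjusted p under 0.05 in edgeR 4 were higher (14.9% of all genes) and 2, Catsperb and Catsperd, lower (9.77%). Without overlap between Ago413+/- and wild type, 1 of 10, Catsper1, was higher (6.44% of all genes). On the lower side were 2, Catsperb and Catsperd (11.2%). Both comparisons use the same wild-type libraries. Between null and Ago413+/- spermatocytes, 0 of 10 were called by edgeR (0.00514% of all genes) or DESeq2 (0.0206%), and 0 of 10 passed an unadjusted p under 0.05 in edgeR (3.74%).

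These calls were lost or gained with wild-type replicate 5 and with the fit. With all libraries kept, edgeR called all 4 genes with no filter on low counts (2623 of all 34461 genes), and Catsper1, Catsper4 and Kcnu1 when only null and wild type were fitted (1303 of 18806 genes). The replicate block called the same 3 (687 of 19450 genes), but replicates 4 and 5 of the wild type share their number with no other library of that fit and add nothing to it, so it too was a comparison without replicate 5. Without replicate 5, edgeR called Catsper1 (adjusted p = 0.00226), Catsper3 (adjusted p = 0.0157), Catsper4 (adjusted p = 0.00309) and Kcnu1 (adjusted p = 0.00312) between null and wild type, at log2 differences of 1.12, 0.84, 1.23 and 0.98. The same 4 genes were then called between Ago413+/- and wild type. Calls over all genes moved in the same way, from 8 to 4526 of 19181 in the null and from 5 to 2966 in Ago413+/-. Leaving out any of the other 6 libraries of the null comparison left 0 of 10 called. Of the wild-type spermatocyte libraries not labelled outliers, replicate 5 is the only one with a label number above 60, against 2 of 3 null libraries, and with that division as a term in the edgeR fit the log2 differences in the null were 0.69 for Catsper1, 0.51 for Catsper3, 0.85 for Catsper4 and 0.68 for Kcnu1, none called. The labels do not say what the numbers stand for. In simulated counts with these library sizes, in which 100 of 19450 genes were changed by each amount, edgeR recovered 29% of genes changed by 1 on the log2 scale between null and wild-type spermatocytes and 87% of those changed by 2. In the data, 5907 of 19450 genes passed an unadjusted p under 0.05 in edgeR. The adjusted p depends on how many genes change, so these recovered shares need not hold in the data.

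The summed level of round spermatid markers separated the same libraries as these 4 genes, 3 wild-type libraries from the other 7, but did not follow Kcnu1 within the mutants. The 6 markers (Acrv1, Spaca1, Spaca7, Sun5, Tssk6, Izumo1), all detected, summed to 672, 759, 534 and 999 CPM in the wild-type spermatocyte libraries, to 999.6, 915 and 1569 CPM in Ago413+/- and to 1257, 956 and 1019.9 CPM in the null. Replicate 5 had the highest sum of the wild type, and the other 3 wild-type libraries had the lowest sums of all 10. Ago413+/- replicate 3, with the highest sum, had the lowest Kcnu1 of the mutant libraries (98.4 CPM). Tssk6, 1 of the 6 markers, did not follow the sum, with means of 181 CPM in wild-type, 195 CPM in Ago413+/- and 169 CPM in null spermatocytes, while the other 5 had higher means in both mutants. Spermatogonium markers, all 6 detected, summed to 34.4 to 44.1 CPM in wild-type, 63.2 to 88.0 CPM in Ago413+/- and 42.6 to 73.2 CPM in null spermatocytes, without overlap between Ago413+/- and wild type. Of these, Stra8, which is needed for entry into meiosis, had means of 4.39, 17.9 and 8.91 CPM in the same order. The elongating spermatid sum had a median of 8694 CPM in wild-type and 7108 CPM in null spermatocytes, with overlap. Spermatocyte markers summed to 749.7, 654, 1029 and 662 CPM for the wild type, 579.7, 432 and 563 CPM for Ago413+/-, all below the wild type, and 456, 594 and 669 CPM for the null. Of these markers, Sycp3 (means of 133 CPM in wild-type and 64.9 CPM in null), Hormad1 (65.7 and 30.9 CPM) and Mybl1 (73.5 and 45.2 CPM) were lower in the null without overlap. Sycp1, Sycp2 and Ccna1 overlapped between null and wild type. Set over the round spermatid sum of the same library, Catsper1 came to 9.0% to 14.3% in the wild type and 11.9% to 16.7% in the null, Catsper3 to 10.5% to 12.5% and 10.5% to 13.3%, Catsper4 to 12.9% to 17.9% and 17.8% to 23.1%, and Kcnu1 to 9.01% to 14.4% and 10.6% to 14.3%. On that scale, which was chosen after the values were seen, null and wild type overlapped for all 4 genes. For Catsper4 the overlap was narrow, 17.8% in the lowest null library against 17.9% in the highest wild-type library. In Ago413+/- the values were 10.8% to 15.8% for Catsper1, 12.01% to 12.2% for Catsper3, 17.7% to 18.5% for Catsper4 and 6.27% to 11.7% for Kcnu1, each overlapping the wild type. The part of these marker shifts in the differences was not tested.

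**Figure D2:**
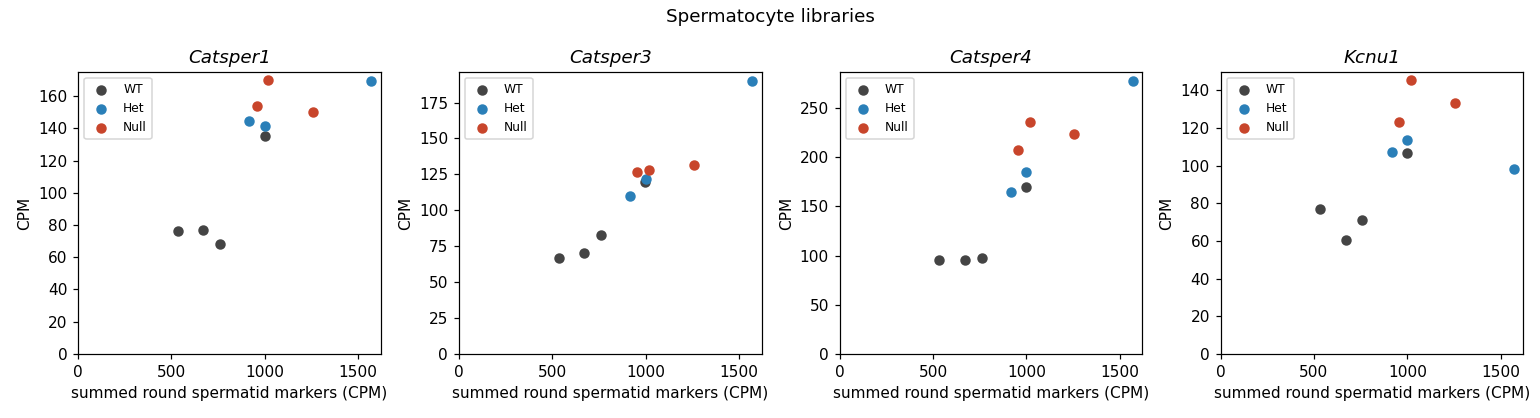
Level of Catsper1, Catsper3, Catsper4 and Kcnu1 (y axis, CPM) against the summed level of 6 round spermatid markers (x axis, CPM) in the 10 spermatocyte libraries, with points coloured by genotype. The 3 wild-type libraries with sums of 534 to 759 CPM have the lowest levels of all 4 genes, and wild-type replicate 5, at 999 CPM, lies beside the mutant libraries.

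In round spermatids, levels of the same 4 genes were again higher on average in both mutant groups, by smaller amounts. Catsper4 stood at 131, 172 and 196 CPM in wild-type, 187, 159.5, 194 and 209 CPM in Ago413+/- and 240.2, 243, 197 and 222 CPM in null libraries. The null libraries did not overlap the wild type, by a margin of under 2 CPM. Kcnu1 stood at 79.9, 123 and 104 CPM in wild-type, 119.9, 106, 136 and 154 CPM in Ago413+/- and 136, 151, 129.6 and 139 CPM in null libraries, also without overlap between null and wild type. The log2 difference between null and wild type was 0.41 ± 0.14 for Catsper4 (edgeR, adjusted p = 0.148) and 0.41 ± 0.16 for Kcnu1 (edgeR, adjusted p = 0.18).

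Catsper1 ranged from 126 to 159.8 CPM in wild-type, from 144 to 211 CPM in Ago413+/- and from 173 to 193 CPM in null round spermatids. Catsper3 ranged from 97.1 to 153 CPM, from 112 to 167 CPM and from 126 to 194 CPM in the same order, with overlap. Catsperb, an auxiliary subunit with a large extracellular part, was higher in all 4 Ago413+/- libraries (57.4 to 77.6 CPM) than in the wild type (35.3 to 50.2 CPM), at a log2 difference of 0.62 ± 0.25 (edgeR, adjusted p = 0.551). Its null libraries spread from 31.7 to 70.9 CPM.

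Markers also differed between these groups. The round spermatid sum ranged from 1304 to 1522 CPM in wild-type, from 1203 to 2003 CPM in Ago413+/- and from 1397 to 2116 CPM in null round spermatids, with overlap. Of its genes, Acrv1 had means of 195, 245 and 267 CPM, Sun5 of 95.5, 116 and 126 CPM and Izumo1 of 81.7, 107 and 113 CPM in the same order. Spaca1 had means of 242, 308 and 318 CPM and Spaca7 of 102, 122 and 124 CPM. Tssk6, the most abundant of the 6, had means of 683, 675 and 772 CPM and so was not higher in Ago413+/-. The macrophage sum ranged from 9.99 to 13.5 CPM in wild-type, from 10.2 to 24.4 CPM in Ago413+/- and from 14.8 to 21.1 CPM in null libraries, without overlap between null and wild type. Spermatocyte markers summed to 394 to 435 CPM in wild-type, 307 to 477 CPM in Ago413+/- and 274 to 401 CPM in null libraries, with overlap. Of these, Ccna1 had means of 259, 196 and 178 CPM, and neither mutant overlapped the wild type. The other genes of that list overlapped. The part of these markers in the differences was not tested.

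Hvcn1 did not pass the filter in round spermatids, and of the 9 genes tested there edgeR called 0 between null and wild type (0.0518% of all 19310 genes) and 0 between Ago413+/- and wild type (0.0207%). DESeq2 also called 0 of 9 in both, against 3.64% and 0.0363% of all genes. At an unadjusted p under 0.05 in edgeR, 2 of 9 were higher in the null, Catsper4 and Kcnu1, against 8.01% of all genes. In Ago413+/-, 4 of 9 (Catsper1, Catsperb, Catsperg1 and Kcnu1) were higher at that level, against 4.97% of all genes. Without overlap, 3 of 9 were higher in the null (9.09% of all genes). Between null and Ago413+/- round spermatids, edgeR and DESeq2 called 0 of 9 (0.00518% and 0.104% of all genes), and 2 of 9, Slc9c1 and Catsperg1, were lower at an unadjusted p under 0.05 in edgeR (3.98% of all genes). Slc9c1 had 138, 154, 164 and 140.0 CPM in Ago413+/- and 82.4, 89.9, 118 and 140.0 CPM in null round spermatids, with overlap, a log2 difference of -0.50 ± 0.19 (edgeR, adjusted p = 0.631).

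**Figure D3:**
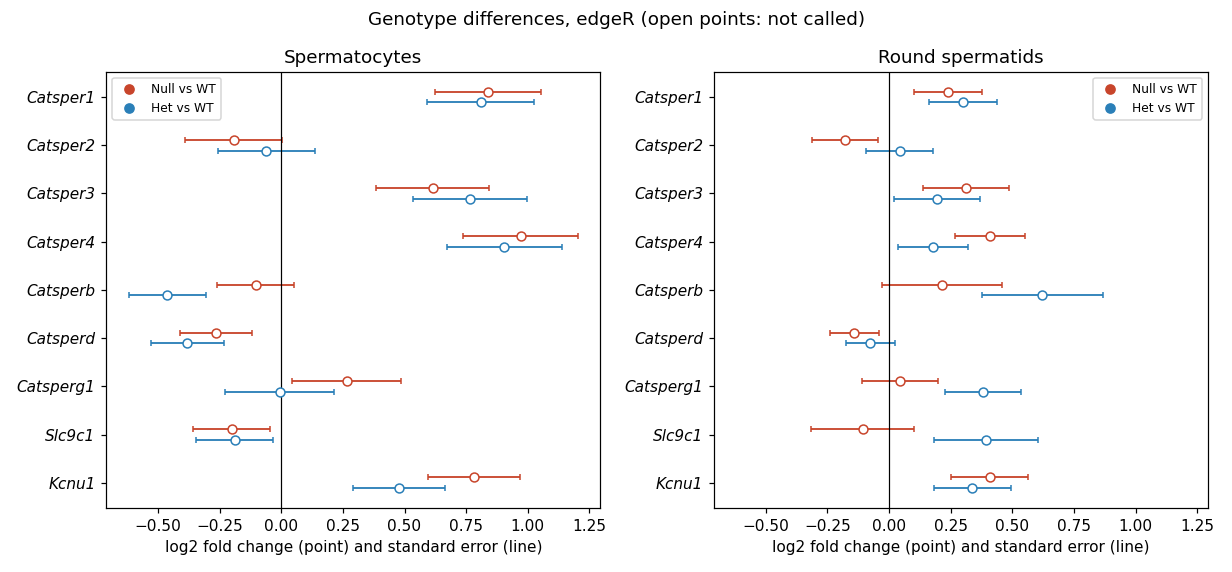
Log2 fold change from the wild type (x axis; points, with lines for the standard error) of 9 genes in null and Ago413+/- spermatocytes (left) and round spermatids (right), from edgeR; open points were not called, and no point is filled. Catsper1, Catsper3, Catsper4 and Kcnu1 lie between 0.48 and 0.97 in spermatocytes and between 0.18 and 0.41 in round spermatids.

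Whether the null difference itself differed between fractions was tested in a fit of all 21 libraries. The null difference was smaller in round spermatids by 0.55 ± 0.26 for Catsper1 (a value of -0.55, edgeR, adjusted p = 0.807), and by a like amount for Catsper4 (-0.52 ± 0.28; adjusted p = 0.807), on the log2 scale. None of the 10 genes was called by edgeR or DESeq2, against 0% and 0% of all 20404 genes. At an unadjusted p under 0.05 in edgeR only Catsper1 passed, 1 of 10, against 5.95% of all genes.

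Between the fractions of the wild type, Catsperb and Slc9c1 fell from spermatocytes to round spermatids, while Catsper1 and Catsper4 rose. Catsperb (ENSMUSG00000047014, chromosome 12, 101404653 to 101626009) had 86.2, 99.6, 113 and 107 CPM in wild-type spermatocytes and 35.3, 47.4 and 50.2 CPM in wild-type round spermatids. The fractions did not overlap, and the log2 difference (round spermatids minus spermatocytes) was -1.19 ± 0.21 (edgeR, adjusted p = 0.000566). Of its 31-base words, 14.6% recur elsewhere, mostly in the gene model Gm18795. Slc9c1 (ENSMUSG00000033210, chromosome 16, 45535309 to 45607001) had 178, 240.2, 223 and 229 CPM and 84.5, 116 and 143 CPM in the same groups, also without overlap, a log2 difference of -0.93 ± 0.19 (edgeR, adjusted p = 0.00131). The promoter windows of these genes held AACTG 4 and 3 times, as printed above. That word was chosen after the matches were seen, and a link to these levels was not tested.

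Catsper1 was at 126, 159.8 and 159 CPM in wild-type round spermatids. Only wild-type spermatocyte replicate 5, at 135 CPM, overlapped these values, and the log2 difference was 0.73 ± 0.18 (edgeR, adjusted p = 0.00551). Catsper4 differed by 0.54 ± 0.20 (adjusted p = 0.0496, DESeq2, adjusted p = 0.0546), just inside the threshold in edgeR and outside it in DESeq2. With spermatid and spermatocyte libraries of consecutive label numbers taken as pairs, Catsper4 fell below the fold threshold (0.47; edgeR, adjusted p = 0.042) and Catsper3 was called (0.55; adjusted p = 0.0277). Catsper3 (0.56 ± 0.22; edgeR, adjusted p = 0.0592) and Kcnu1 (0.38 ± 0.17; adjusted p = 0.112) were not called. Catsper2 (-0.34 ± 0.17), Catsperd (-0.20 ± 0.12) and Catsperg1 (0.19 ± 0.20) were not called either, at adjusted p of 0.142, 0.234 and 0.512 in edgeR.

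Of the 10 genes, 4 were called in the wild type, 2 higher and 2 lower in round spermatids, where 24.2% of all 20404 genes were called (12.7% higher and 11.4% lower). Catsper1, Catsperb and Slc9c1 were called whichever library of the comparison was left out. The call of Catsper4 was lost without wild-type spermatocyte replicate 1, 2 or 4 or round spermatid replicate 2 or 4 (adjusted p up to 0.219 in edgeR). Without spermatocyte replicate 5 or round spermatid replicate 1, Catsper3 and Kcnu1 were called as well, where 6398 of all 20262 and 4047 of all 20342 genes were called. With the 3 labelled outliers added back, 2 of them wild-type, edgeR called 0 of 10 and 0 of all 20542 genes tested, of which 5950 passed an unadjusted p under 0.05, at log2 differences of 0.58 for Catsper1, -0.69 for Catsperb and -0.48 for Slc9c1. The elongating spermatid and spermatocyte markers of all 3 outliers go against their labels. Whether these libraries hold the labelled fractions was not tested.

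The null fractions differed in the same genes on the lower side only. Catsperb had 79.0, 95.7 and 104 CPM in null spermatocytes and 31.7, 44.6, 59.96 and 70.9 CPM in null round spermatids, a log2 difference of -0.85 ± 0.20 (edgeR, adjusted p = 0.00551). Slc9c1 had 164, 184 and 213 CPM and 82.4, 89.9, 118 and 140.0 CPM, a difference of -0.80 ± 0.18 (edgeR, adjusted p = 0.00418). Both were called in every alternative run, 2 of 10, against 17.1% of all genes (11.7% higher and 5.42% lower). Catsper1 (0.18 ± 0.18) and Catsper4 (0.021 ± 0.20) were not called in the null, and the difference of these values from the wild type is the test between fractions given above.

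In Ago413+/-, edgeR called 0 of 10, against 8.89% of all genes (7.07% higher and 1.82% lower), with 1 of 10 (Catsperg1) at an unadjusted p under 0.05 (23.6% of all genes). Catsperb had 76.7, 72.4 and 64.4 CPM in Ago413+/- spermatocytes and 57.4, 77.6, 70.1 and 65.1 CPM in round spermatids, with overlap (log2 difference -0.075 ± 0.20; edgeR, adjusted p = 0.868). Slc9c1 differed by -0.31 ± 0.18 (adjusted p = 0.321). Whether the fraction difference of these genes in Ago413+/- departs from that in the wild type was not tested. DESeq2 called 1 of 10 (11.2% of all genes), Catsperg1 (0.62 ± 0.20 and adjusted p = 0.0544 in edgeR; adjusted p = 0.0391 in DESeq2), whose spermatocyte replicate 3 stood at 90.4 CPM against 169 and 187 CPM in the others. Catsperg1 was called by edgeR without spermatocyte replicate 2 (adjusted p = 0.0199) or round spermatid replicate 2 (adjusted p = 0.0285), and its log2 difference was 0.34 without spermatocyte replicate 3.

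**Figure D4:**
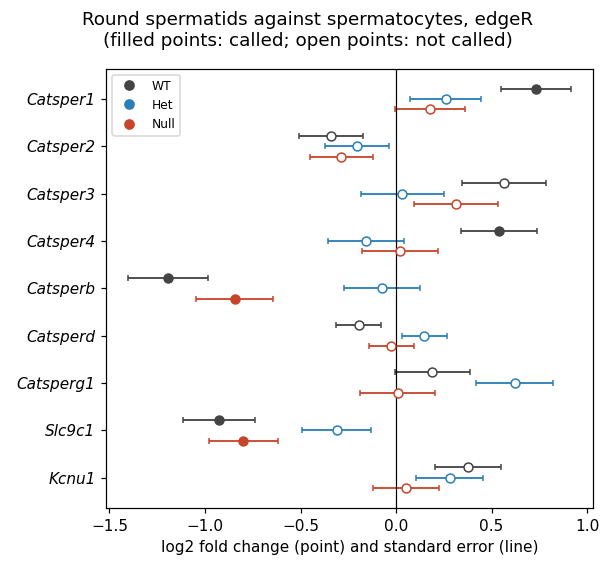
Log2 fold change between round spermatids and spermatocytes (x axis; points, with lines for the standard error) of 9 genes in each genotype, from edgeR; filled points were called and open points were not. Catsperb and Slc9c1 lie between -1.19 and -0.80 in the wild type and the null, and at -0.075 and -0.31 in Ago413+/-.

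Hvcn1 (ENSMUSG00000064267, chromosome 5, 122206804 to 122242297) had 0 to 18 counts per library. It reached 10 counts in 2 Ago413+/- and 1 null spermatocyte library and in 1 null round spermatid library. The 3 counts that an observed 0 allows came to at most 0.234 CPM in any library, and the highest level was 0.697 CPM. Of its exon bases, 44.2% overlap Tctn1 on the opposite strand, which stood at 37.7 to 51.7 CPM in group means, so no difference in Hvcn1 could be read at this depth.

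The other known parts of the CatSper complex were 9 genes, all of which passed the filter: Catsperg2, Catspere1, Catspere2, Catsperz, Efcab9, Tmem249, Tmem262, C2cd6 and Slco6c1. Catsperz shares 46.5% of its exon bases with Kcnk4, and reads there cannot be told apart. Of these, edgeR called 0 between null and wild-type spermatocytes (0.0411% of all genes) and DESeq2 called 1, Tmem249 (15.6%), with 3 of 9 higher at an unadjusted p under 0.05 in edgeR (15.9%) and a median log2 difference of -0.075. Efcab9, the calcium sensor of the channel, differed by 0.67 ± 0.29 (edgeR, adjusted p = 0.141). C2cd6, which encodes a subunit needed to bring the channel to the tail, differed by 0.33 ± 0.14 (adjusted p = 0.137) and Slco6c1, an organic anion transporter found in the complex, by -0.11 ± 0.14 (adjusted p = 0.611). Tmem249, singled out after its values were seen, differed by 1.28 ± 0.30 (edgeR, adjusted p = 0.0599, DESeq2, adjusted p = 0.00383).

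Between the wild-type fractions, 3 of these 9 were called, against 24.2% of all genes, and all 3 fell from spermatocytes to round spermatids, against 11.4% of all genes. They were Catspere1 (a log2 difference of -1.42 ± 0.25; edgeR, adjusted p = 0.000613), Catspere2 (-1.52 ± 0.27; adjusted p = 0.00061) and C2cd6 (-0.55 ± 0.15; adjusted p = 0.00942). Catspere1 and Catspere2 share 36.7% and 23.2% of their words, mostly with each other, and Catspere1 is annotated as a pseudogene. The same 3 genes were called lower in the null (5.42% of all genes), Catspere2 alone in Ago413+/- (1.82%). Slco6c1 (-0.50 ± 0.12; adjusted p = 0.00448) missed the fold threshold, and Efcab9 stood at 0.48 ± 0.25 (adjusted p = 0.172). The median over the 9 genes was -0.35, beside 0.016 over all genes.

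Of 11 other genes of sperm pH, cyclic AMP and ion transport, 9 passed the filter, Slc9b2 and Slc26a3 being too low. Between null and wild-type spermatocytes edgeR called 0 of 9 (0.0411% of all genes), DESeq2 called 1, Cftr (15.6%), and 5 of 9 were higher at an unadjusted p under 0.05 in edgeR (15.9%). The median log2 difference was 0.45. Adcy10, the soluble adenylyl cyclase that sNHE works with, differed by 0.45 ± 0.17 (edgeR, adjusted p = 0.0966), Atp1a4, the sperm isoform of the sodium pump, by 0.50 ± 0.19 (adjusted p = 0.103) and Slc26a8, an anion transporter, by -0.16 ± 0.15 (adjusted p = 0.458). Cftr, a chloride channel singled out after its values were seen, differed by 0.87 ± 0.25 (edgeR, adjusted p = 0.0648, DESeq2, adjusted p = 0.0166).

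From wild-type spermatocytes to round spermatids edgeR called 4 of the 9 higher and 0 lower, against 12.7% and 11.4% of all genes. Atp1a4 rose by 1.52 ± 0.21 on the log2 scale (edgeR, adjusted p = 0.000435), and Adcy10 by 0.60 ± 0.16 (adjusted p = 0.00826). Abhd2, a lipid hydrolase through which progesterone acts on CatSper in human sperm, rose by 0.65 ± 0.13 (adjusted p = 0.0012) and Lrrc52, the auxiliary subunit of SLO3, by 0.55 ± 0.20 (adjusted p = 0.0452). Slc26a8 stood at -0.21 ± 0.12 (adjusted p = 0.192). In the null, Atp1a4 and Abhd2 were called higher (11.7% of all genes) and Cftr lower (5.42%), and in Ago413+/- Atp1a4 and Adcy10 were called higher (7.07%). In Ago413+/- spermatocytes and in round spermatids of either mutant, edgeR and DESeq2 called none of these 18 tested genes against the wild type. Over all genes, the shares called by edgeR and DESeq2 were 0.0257% and 6.31% in Ago413+/- spermatocytes, 0.0518% and 3.64% in null and 0.0207% and 0.0363% in Ago413+/- round spermatids. At an unadjusted p under 0.05 in edgeR, Ago413+/- spermatocytes had 6 higher and 1 lower (14.9% and 9.77% of all genes), null round spermatids had 2 higher and 1 lower (8.01% and 11.3%), and Ago413+/- round spermatids had 1 higher (4.97%).

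**Figure D5:**
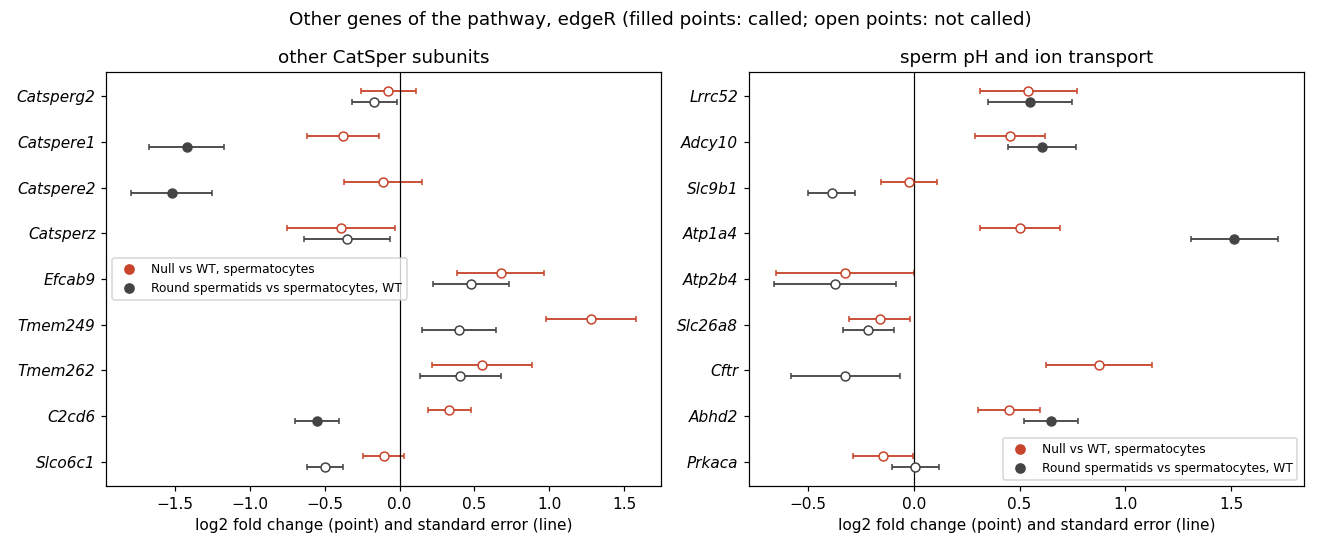
Log2 fold change (x axis; points, with lines for the standard error) of the other CatSper subunits (left) and of genes of sperm pH and ion transport (right), between null and wild-type spermatocytes and between round spermatids and spermatocytes of the wild type, from edgeR; filled points were called. Catspere1, Catspere2 and C2cd6 are filled on the lower side, Lrrc52, Adcy10, Atp1a4 and Abhd2 on the higher side, and no null difference is filled.

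Genes outside the set were ranked by the Pearson correlation of their log2 CPM, over the 21 libraries, with the mean standardized profile of the 9 members that had 10 or more counts in every library. The 5 closest were 4930544M13Rik (r = 0.884), Golga5 (r = 0.875), Zfp438 (r = 0.87), Sec23ip (r = 0.87) and Slc22a15 (r = 0.863). Single members had closer matches, such as Pde4a for Catsper1 (r = 0.984), Gm31326 for Catsper4 (r = 0.982), Wdr78 for Catsperb (r = 0.967) and 0610010F05Rik for Slc9c1 (r = 0.968). These correlations are maxima over all genes with scaled levels and are given as a description.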

How the data were processed

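The authors deposited raw gene counts of 24 bulk libraries. Per the labels and methods, poly(A) RNA was made into directional libraries, paired reads were trimmed with TrimGalore and aligned with STAR (mm10), and the gene counting of STAR gave the counts, which come from uniquely mapped reads; the strand column and annotation release are not given in the sources used here. All 55536 identifiers were found in GENCODE M21 (GRCm38/mm10). Each fraction was fitted with its 3 genotypes with edgeR 4.0.16 (R 4.3.3; quasi-likelihood, TMM scaling) on genes with 10 or more counts in 3 or more libraries, and the fractions were compared in one fit of 21 libraries. A gene was called at a two-sided Benjamini-Hochberg adjusted p below 0.05 with a log2 difference beyond 0.5 in either direction. DESeq2 1.42.0 was the alternative tool. The paper itself tested its bulk RNA-seq with DESeq2, using the same count filter and the same thresholds for a changed gene. CPM used joint TMM scaling. Floors of 3 counts cover counting error only. In 37 pairs of libraries of one group, the chi-square per gene was at least 9.75, and none was treated as a repeat. P-values measure the spread between pools of animals. Pairing of libraries by replicate number and by consecutive label numbers was checked. The tests were tried on simulated data. All 10 members were named, and from the other lists the called genes and the 3 with the highest mean CPM. The members and lists were chosen with earlier results of these data known.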

Additional observations from a re-analysis of the deposited data

Results flagged for a closer look

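Within groups of 4 libraries, the highest library of Catsper1 in wild-type spermatocytes (replicate 5, 135 CPM) lay far from the other 3, which reached 77.1 CPM. The highest library of Catsper4 in the same group was also replicate 5, at 169 CPM against at most 97.8 CPM in the others. In null round spermatids, the highest library of Catsper1 (replicate 2, 193 CPM) lay apart from 3 libraries between 173 and 174 CPM. These are 3 of 27 groups of 4 libraries examined for the 9 members other than Hvcn1 with Dixon's 95% limit, which flags about 1 in 20 by chance, and the first 2 come from the same library.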

How the results depend on the processing

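Between null and wild-type spermatocytes, 0 members were called in the main test, 3 with DESeq2, 4 with no filter on low counts, 3 with only the compared groups, and 0 to 4 when a library was left out. Between Ago413+/- and wild-type spermatocytes, the counts were 0 in the main test, 3 with DESeq2, 3 with no filter and 0 to 4 when a library was left out. Between the fractions of the wild type, 4 were called in the main test, 3 with DESeq2, RLE scaling or only the compared groups, 5 with no filter, 0 with the labelled outliers added back and 3 to 6 when a library was left out. In Ago413+/- the counts were 0, then 1 with DESeq2, 1 with no filter and 0 to 1 when a library was left out. The cause of these moves was not tested. Over all genes, the main test called 8 between null and wild-type spermatocytes, against 3026 with DESeq2, 2623 with no filter, 1303 with only the compared groups and 4 with label numbers above 60 as a term. It called 5 between Ago413+/- and wild-type spermatocytes, against 1228 with DESeq2, 1481 with no filter, 2 with only the compared groups and 3 with the outliers added back. Between null and Ago413+/- spermatocytes it called 1, against 4, 30 and 0 with DESeq2, no filter and only the compared groups. In round spermatids the counts for null against wild type were 10 in the main test, 702 with DESeq2, 20 with RLE scaling, 238 with no filter and 26 with the outliers added back, for Ago413+/- against wild type 4, 7 with DESeq2 and 10 with no filter, and for null against Ago413+/- 1, 20 with DESeq2 and 11 with no filter. Between fractions, 4934, 1814 and 3498 genes were called in the wild type, Ago413+/- and the null, and 0, 0 and 2275 with the outliers added back; in Ago413+/- 505 were called with only the compared groups and 1113 with consecutive label numbers as pairs.

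Replicate numbers were not taken to pair libraries, as same-numbered libraries of one fraction had correlations of deviations from -0.24 to 0.17. Round spermatid and spermatocyte libraries of one genotype with consecutive label numbers had correlations from -0.14 to 0.31, above 0.1 in 8 of 9 pairs, a hint of pairing from the data and not from the labels. Taking them as pairs left 4 members called in the wild type, with Catsper3 in place of Catsper4. With the replicate block, 3 members (687 of all genes) were called between null and wild-type spermatocytes, 0 (2 of all genes) between Ago413+/- and wild-type spermatocytes and 6 (6190 of all 20404 genes) between the wild-type fractions; in spermatocytes, wild-type replicates 4 and 5 share their number with no other library of that fit and so add nothing to it, and the same holds for spermatocyte replicate 5 in the fit of both fractions.

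Single genes were followed where the difference exceeded its standard error. Of 74 such results, 43 kept direction and call in every alternative and 3 changed direction in one. Slc9c1 in Ago413+/- round spermatids went from 0.39 to -0.034 (log2) with the outliers added back, the difference between fractions in the null effect on Catsperb from 0.35 to -0.16 likewise, and Catsper2 between Ago413+/- fractions ranged from -0.36 to 0.070 when a library was left out. None of the 3 was called.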

Other observations

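The 3 libraries labelled outliers were set beside the libraries of their own label on a scaling of all 24. The library labelled wild-type spermatocyte replicate 3 had Catsper1 at 168 CPM and Kcnu1 at 121 CPM, above its group, and Catsperb at 66.7 CPM, below it. The library labelled wild-type round spermatid replicate 3 had Slc9c1 at 266 CPM and Catsperb at 103 CPM, against at most 140.3 and 49.3 CPM in its group, and 7 of the 9 members other than Hvcn1 lay above their group there, as did 34.9% of all 20404 genes, while 33.7% lay below. The library labelled Ago413+/- spermatocyte replicate 4 had Catsper1 at 216 CPM and Kcnu1 at 183 CPM, both above its group. In that library 4 of the 9 members and 26.1% of all genes lay above the group. In wild-type spermatocyte replicate 3, 4 of the 9 members lay above and 4 below, against 29.2% and 28.8% of all genes.

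Reads of the other targeted genes were still counted in null libraries. Ago3 stood at 64.8 CPM on average in null and 7.02 CPM in wild-type spermatocytes (a log2 difference of 3.23 ± 0.41; edgeR, adjusted p = 0.00826), and at 29.9 against 4.56 CPM in round spermatids (adjusted p = 0.0108). Ago4 stood at 12.3 CPM in null and 32.1 CPM in wild-type spermatocytes (edgeR, adjusted p = 0.0608). The deletion removes these 2 genes in part, and which of their exons gave the counts cannot be read from counts per gene. The paper states that the null makes mRNA of both genes with premature stop codons. It reports loss of AGO1, AGO3 and AGO4 protein from null testis by western blot.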
